A study of Homo sapiens with 18 samples.

Results

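The genes described here encode the phosphatases that switch off MAP kinases, the wider tyrosine phosphatase family, and the Sprouty and SPRED inhibitors of RAS signalling. They were selected by symbol (numbered DUSP and PTPN genes, lettered PTPR genes, PTP4A1 to PTP4A3, SPRY1 to SPRY4 and SPRED1 to SPRED3), and the selection rule holds no measured value. The rule found 56 genes of 15019 in either of 2 tables, of which 54 are in both. PTPN13 has values in the H33 table only and PTPN22 in the H12 table only. Another 16 genes of these families, among them PTPRC, PTPRN, PTPRD and PTPRZ1, were not analysed here.

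The samples were 3 groups of 6 libraries. HepG2, wild type and used as the control, is a hepatoblastoma line obtained from ATCC, and H33 and H12 are clones of it that carry the DNAJB1-PRKACA fusion. This fusion of a co-chaperone gene with the gene of a catalytic subunit of protein kinase A (PKA) is the hallmark of fibrolamellar carcinoma. The labels give 1 medium for all, RPMI1640 with serum and antibiotics, and no other agent, and each fusion line is a single clone, so a fold change covers every difference between a clone and HepG2 and not the fusion alone. The labels speak of biological replicates but name no separate cultures, and p-values then measure only the spread between these samples, which may be technical.

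MAP kinases are active when a threonine and a tyrosine in their activation loop are both phosphorylated. The dual-specificity phosphatases (DUSPs) remove these phosphates, and many DUSP genes are themselves induced by the kinases they oppose, so that they form a negative feedback loop. Sprouty and SPRED proteins act higher up, between receptor tyrosine kinases and RAF, and are also induced by ERK signalling. The classical tyrosine phosphatases, which are either cytoplasmic (PTPN) or receptors (PTPR), act on receptors, Src family kinases, JAK kinases and adhesion proteins, and some of them, such as SHP-2, promote RAS signalling rather than oppose it.

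PKA phosphorylates CREB, a factor that binds the cAMP response element TGACGTCA. RefSeq promoter entries (GRCh38.p14) were matched by symbol for 48 of the 56 members, in 77 windows, and the 250 bases before each annotated start were searched. The full element TGACGTCA, whose reverse complement is itself, was found in 4 of the 77 member windows (5.19%) and in 1.65% of all 35116 windows. Its shorter core TGACG, searched on both strands and counted also within the full element, was found in 23.4% of member windows and 21.2% of all. The AP-1 element TGANTCA (3.90% against 6.57%) and the ETS element CCGGAAG (7.79% against 8.52%), each on both strands, were no more frequent among the members. These matches describe letters in a window and not binding. The share of the full element among the members rests on 4 windows and was not tested against that of all windows. Of the 4 genes with it, DUSP8, PTPRS and PTPRU were lower in both clones and DUSP1 was higher in H33 only. The windows of the 4 genes with the full element are shown because the fusion carries a PKA subunit. Those of SPRY2 and DUSP9 are shown because they had the highest Sprouty level per kb in the clones and the highest MAPK phosphatase level per kb in HepG2. Capitals mark the full element in the windows of DUSP1, DUSP8, PTPRS and PTPRU and the core in that of SPRY2, while the DUSP9 window shown holds neither.
DUSP1, chr5:172771196-172771445, minus strand: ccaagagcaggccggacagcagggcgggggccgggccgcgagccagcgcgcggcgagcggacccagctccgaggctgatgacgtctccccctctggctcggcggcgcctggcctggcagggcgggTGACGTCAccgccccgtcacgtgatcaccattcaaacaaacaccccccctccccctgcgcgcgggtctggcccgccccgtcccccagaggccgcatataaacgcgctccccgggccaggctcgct
DUSP8, chr11:1572272-1572521, minus strand: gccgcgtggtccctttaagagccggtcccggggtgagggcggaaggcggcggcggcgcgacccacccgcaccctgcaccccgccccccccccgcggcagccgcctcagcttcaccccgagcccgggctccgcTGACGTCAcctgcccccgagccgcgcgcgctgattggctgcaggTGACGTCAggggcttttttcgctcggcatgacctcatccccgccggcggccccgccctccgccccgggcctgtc
PTPRS, chr19:5340813-5341062, minus strand: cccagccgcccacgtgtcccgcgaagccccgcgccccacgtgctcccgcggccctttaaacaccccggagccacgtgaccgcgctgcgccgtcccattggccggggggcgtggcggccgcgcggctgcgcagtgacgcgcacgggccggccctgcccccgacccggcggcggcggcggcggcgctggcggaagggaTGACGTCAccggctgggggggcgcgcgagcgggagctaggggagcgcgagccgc
PTPRU, chr1:29236272-29236521, plus strand: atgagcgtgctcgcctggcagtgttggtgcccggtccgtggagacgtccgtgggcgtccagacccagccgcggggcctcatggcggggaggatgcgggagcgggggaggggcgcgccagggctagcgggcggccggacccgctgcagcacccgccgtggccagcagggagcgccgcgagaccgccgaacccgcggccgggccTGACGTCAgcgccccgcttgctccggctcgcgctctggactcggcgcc
SPRY2, chr13:80341127-80341376, minus strand: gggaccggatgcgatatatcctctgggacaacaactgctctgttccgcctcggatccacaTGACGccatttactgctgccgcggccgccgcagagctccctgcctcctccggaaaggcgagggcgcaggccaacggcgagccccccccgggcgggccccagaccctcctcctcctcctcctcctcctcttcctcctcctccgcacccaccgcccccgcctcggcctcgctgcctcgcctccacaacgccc
DUSP9, chrX:153642191-153642440, plus strand: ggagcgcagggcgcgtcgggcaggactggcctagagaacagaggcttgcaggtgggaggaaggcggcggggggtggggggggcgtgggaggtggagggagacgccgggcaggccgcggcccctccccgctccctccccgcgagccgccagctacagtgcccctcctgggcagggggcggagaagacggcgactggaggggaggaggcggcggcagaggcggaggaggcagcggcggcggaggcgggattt
In DUSP1 the full element starts 125 bases before the annotated start, in DUSP8 118 and 74 bases before it, in PTPRS 54 and in PTPRU 48. In SPRY2 the core starts 190 bases before the start of the outermost of its 3 windows.

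The values used here are the authors' edgeR statistics, 1 table per clone, with no values per library, so depth and the spread between libraries are unknown. Over HepG2, the log2 fold change of PRKACA, the fused kinase gene, was 2.15 (SE 0.03) for H33 and 2.07 (SE 0.14) for H12 in the authors' deposited tables. Here and below SE is the standard error implied by the authors' test, and values given as a pair are for H33 and then H12. The labels call all 3 lines hepatoblastoma, but all 10 hepatocyte markers checked, such as ALB and HNF4A, were lower in both of the authors' deposited tables. Their summed level implied by these tables was 55452 CPM (counts scaled to the same total in every library) in HepG2, 109 in H33 and 893 in H12. Of markers of other cell types, 5 of 10 fibroblast, 6 of 12 leukocyte and 4 of 10 endothelial genes were listed. Their summed levels implied by the authors' deposited tables in HepG2, H33 and H12 were 56.4, 1459 and 1207 CPM for fibroblast genes, 3218, 192 and 195 CPM for leukocyte genes and 9.0, 31.0 and 22.5 CPM for endothelial genes. The sums rest on single genes, COL1A2 for fibroblasts and EGFL7 for endothelium in the clones and LYZ for leukocytes in HepG2. Other markers went against them, as ACTA2 (-1.69 and -1.64) and PDGFRB (-4.79 and -4.93) of the fibroblast list fell, CD68 (1.47 and 1.07) of the leukocyte list rose, and the endothelial genes CDH5, ESAM and TIE1 fell in the authors' deposited tables. Per clone, 1 endothelial gene was higher and 3 lower, and 1 leukocyte gene was higher and 4 lower. The fibroblast list had 3 higher and 2 lower for H33 but 2 of each for H12. Of all listed genes, 44.2% passed an adjusted p of 0.05 as rises and 45.3% as falls in H33, against 41.8% and 44.3% in H12. COL3A1, a fibroblast rise in both clones, had a HepG2 level of 0.0464 CPM. This lay under the lowest mean level listed (0.323 CPM for H33 and 0.314 CPM for H12). COL3A1 could be listed only because it was high in the clones, so these counts describe the listed markers and support nothing further. The part of these marker shifts in the results below was not tested. In bulk RNA fewer cells of a type cannot be told apart from less RNA per cell. In H12, 160 genes that lay under -9 in H33 and at 10 CPM or more in HepG2 gathered at a median of 1.64% of the HepG2 level (log2 fold change -5.93 in the authors' deposited table, with a median SE of 0.81). The 10 hepatocyte markers had a median log2 fold change close to this in H12, at -5.95, and of -8.74 in H33. The part of this shared H12 value in the 893 CPM above was not tested.

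In the H33 clone 53 of the 55 listed members were past an adjusted p of 0.05 in the authors' deposited table, against 89.6% of all listed genes. Of these, 24 were higher (44.2% of all genes) and 29 lower (45.3% of all genes). In H12 the authors' deposited table had 52 of 55 past the threshold, against 86% of all genes, with 23 higher (41.8% of all) and 29 lower (44.3% of all). A change of at least 1 log2 unit as well was seen for 33 members in H33 (44.5% of all genes) and 32 in H12 (44.1% of all genes), about evenly split between rises and falls. The members' median log2 fold change was -0.27 in H33 and -0.28 in H12 in the authors' deposited tables, beside -0.02 and -0.03 over all genes. For either clone, 6 members had an implied HepG2 level under the lowest mean level listed (0.323 CPM in H33 and 0.314 CPM in H12). They were DUSP2, DUSP4, DUSP15, PTPN20 and PTPRE in both, with PTPN13 in H33 and PTPN22 in H12. Such genes could be listed only because they were high in the clone, so these counts and medians describe the listed members and support nothing further. The clones share the HepG2 libraries as controls, so similar values in both are not independent of each other.

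**Figure D1:**
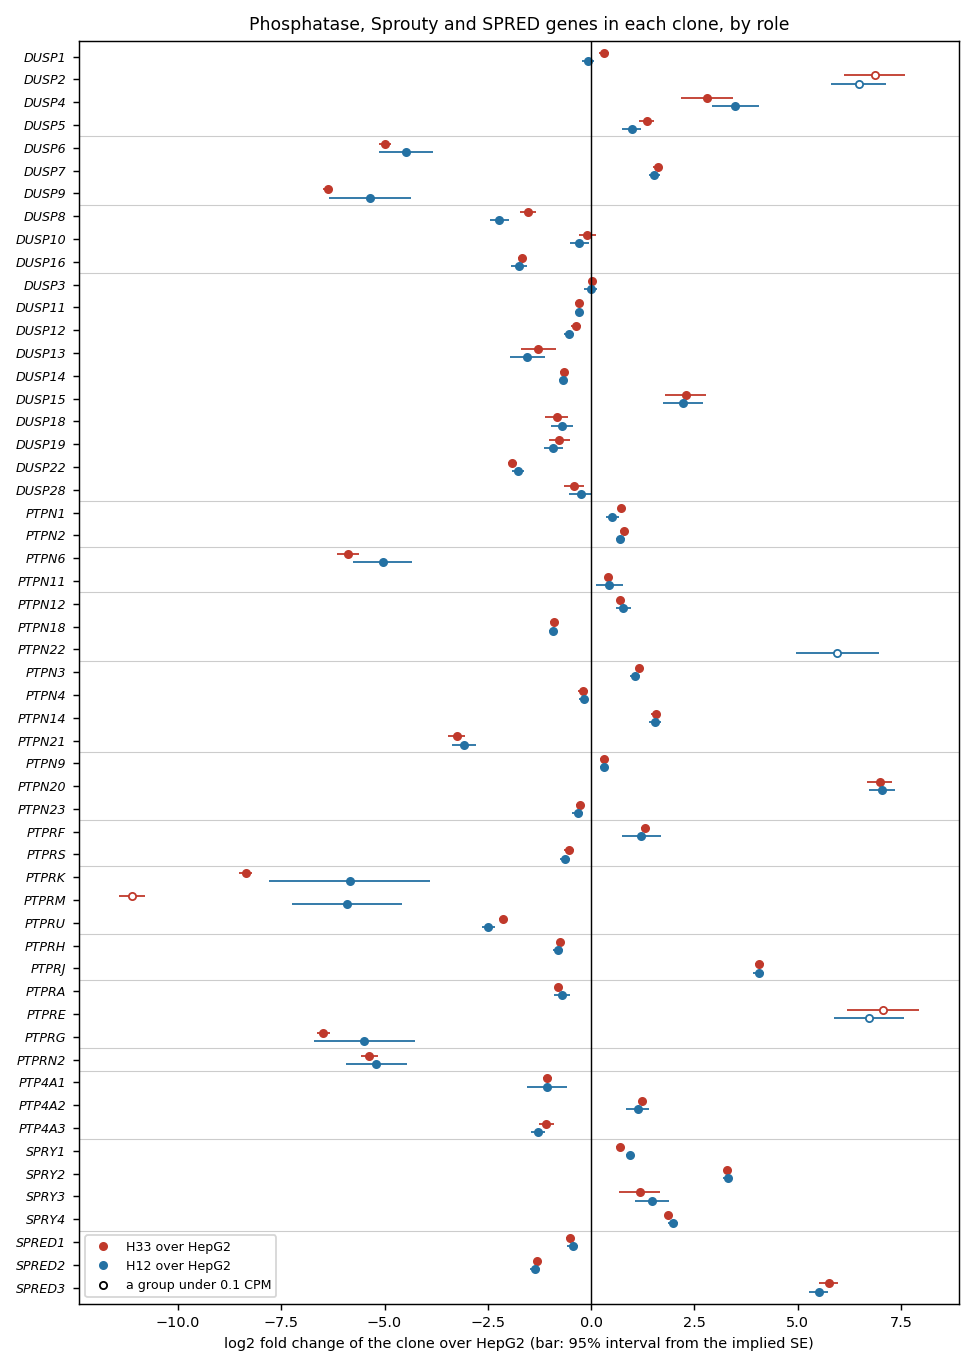
Log2 fold change over HepG2 of each member in H33 (red) and H12 (blue), ordered by role with grey lines between roles. Bars are 95% intervals from the implied SE, and open points mark genes with a group under 0.1 CPM. PTPN13, with HepG2 at the fitted floor, is left out. The falls of PTPRM, PTPRK, DUSP9 and PTPRG reach the far left, and PTPN20, PTPRE and DUSP2 the far right.

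Of the phosphatases that act on ERK in the cytoplasm, DUSP9 and DUSP6 were nearly lost and DUSP7 rose. DUSP9 (MKP-4) stood at an implied 258 CPM in HepG2, 3.09 in H33 and 6.37 in H12. In the authors' deposited tables its log2 fold change was -6.38 (SE 0.06, edgeR adjusted p listed as 0) for H33 and -5.34 (SE 0.51, edgeR adjusted p = 1.90e-25) for H12. DUSP6 (MKP-3), whose transcript is often read as a sign of ERK activity, went from 83.5 CPM to 2.61 and 3.77. Its fold changes in the authors' deposited tables were -4.99 (SE 0.07) and -4.48 (SE 0.33, adjusted p = 3.05e-40). Both clones thus held under 5% of the HepG2 level of either gene, 1.20% and 2.46% for DUSP9 and 3.15% and 4.49% for DUSP6. DUSP7, the closest relative of DUSP6 that was not lost, rose from 14 to 42.7 and 40.4 CPM, by 1.61 (SE 0.06) and 1.53 (SE 0.06) in the authors' deposited tables. GENCODE annotates an antisense gene over 40.5% of the exon bases of DUSP6, so reads of the pair may not be separable.

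The inducible nuclear phosphatases were higher in H33 and, apart from DUSP1, in H12. DUSP1 (MKP-1), an immediate early gene whose product inactivates p38, JNK and ERK and whose promoter window above holds the full cAMP response element, stood at 34.2 CPM in HepG2, 42.2 in H33 and 32.4 in H12. In the authors' deposited tables it rose by 0.31 (SE 0.06, adjusted p = 1.69e-06) for H33 and was not past the threshold for H12 (-0.08, SE 0.07, adjusted p = 0.284). DUSP5, an ERK-selective nuclear enzyme, rose from 4.50 to 11.5 and 8.89 CPM, by 1.34 (SE 0.09) and 0.98 (SE 0.12) in the authors' deposited tables. DUSP2 (PAC-1), best known from activated lymphocytes, and DUSP4 (MKP-2) were barely present in HepG2, at 0.0294 and 0.141 CPM. Both lay under the lowest mean level listed, so they could be listed only because they were high in the clones. Their rises therefore add no support to a rise of the group, which rests on DUSP5 and, for H33, the small change of DUSP1. DUSP2 reached 3.41 and 2.62 CPM, with fold changes of 6.86 (SE 0.38) and 6.47 (SE 0.34) in the authors' deposited tables that rest on very few HepG2 reads. DUSP4 reached 1.00 and 1.55 CPM, with 2.80 (SE 0.32) and 3.49 (SE 0.29) in the authors' deposited tables.

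Of the phosphatases that prefer JNK and p38, DUSP16 and DUSP8 were lower in both clones and DUSP10 lay close to its HepG2 level. DUSP16 (MKP-7) went from 119 to 36.9 and 35.5 CPM, with -1.68 (SE 0.05) and -1.74 (SE 0.10) in the authors' deposited tables. DUSP8, with its full elements shown above, went from 6.70 to 2.33 and 1.44 CPM, with -1.52 (SE 0.10) and -2.23 (SE 0.12) in the authors' deposited tables. In the authors' deposited tables DUSP10 (MKP-5) was not past the threshold for H33 (-0.09, SE 0.11, adjusted p = 0.400) and was past it for H12 (-0.28, SE 0.12, adjusted p = 0.0196).

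Levels of different genes were set side by side per kb of merged exon. Summed over the 10 MAPK phosphatases, the level implied by the authors' deposited tables was 155 CPM per kb in HepG2, 44.5 in H33 and 38.8 in H12. DUSP9 made up 59.7% of this sum in HepG2, 2.5% in H33 and 5.92% in H12. In the clones the largest share was that of DUSP1, at 47.0% and 41.4% against 10.9% in HepG2, with DUSP7 at 17% and 18.4% against 1.60%. The cytoplasmic ERK-selective genes together went from 113 to 9.24 and 10.3 CPM per kb, while the nuclear inducible genes held 18.7, 27.2 and 21.0. Per kb, the leading MAPK phosphatase gene was therefore DUSP9 in HepG2 and DUSP1 in both clones, without a large change in the level of DUSP1 itself. In the clones this order depends on the exon length used. In CPM not divided by length, DUSP7 (42.7 and 40.4) stood above DUSP1 (42.2 and 32.4) in both clones, and DUSP16 (35.5) did so in H12. These sums carry no error, since no values per library were used.

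**Figure D2:**
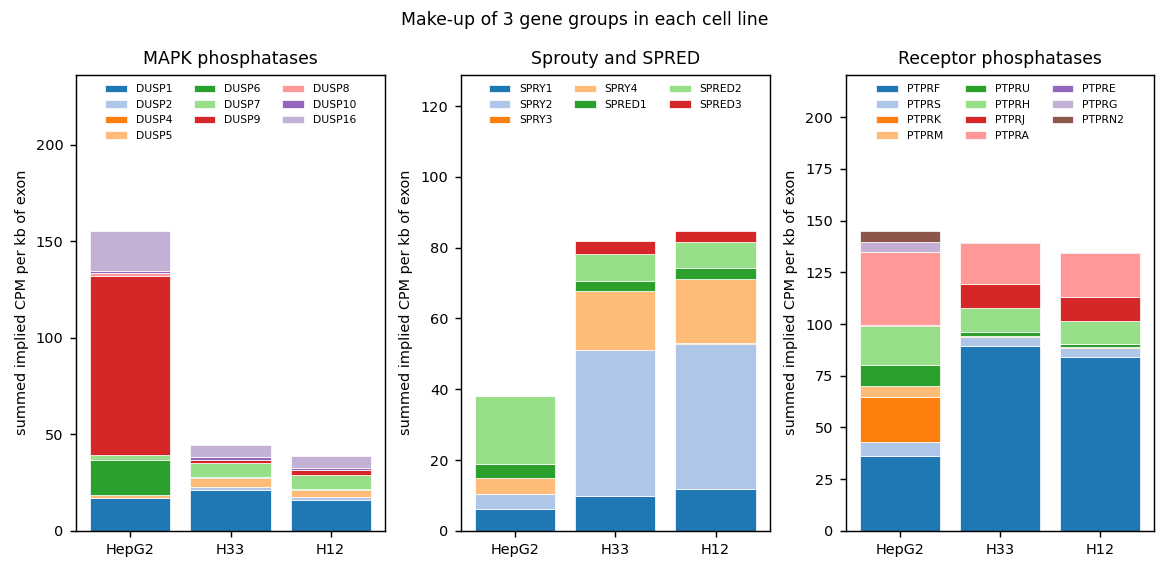
Summed implied level, in CPM per kb of merged exon, of the MAPK phosphatases, the Sprouty and SPRED genes and the receptor phosphatases in both tables, by cell line, with each gene as a coloured segment. The MAPK phosphatase sum falls from 155 to 44.5 (H33) and 38.8 (H12), the Sprouty and SPRED sum goes from 38.2 to 81.9 and 84.7, and the receptor sum stays between 135 and 145 with a larger share of PTPRF in the clones.

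The Sprouty genes, feedback inhibitors of receptor tyrosine kinase signalling, were all higher in both clones. SPRY2 went from 12.7 CPM in HepG2 to 125 in each clone, a rise of 3.30 in either of the authors' deposited tables (SE 0.04 and 0.06). SPRY4 rose from 30.2 to 110 and 119 CPM, by 1.87 (SE 0.05) and 1.99 (SE 0.06) in the authors' deposited tables. The rise of SPRY2 was thus near 10-fold (982% and 988% of HepG2) and that of SPRY4 near 4-fold (365% and 396%), with SEs far below the changes. SPRY1 rose from 24.2 to 39.5 and 46.4 CPM, by 0.70 (SE 0.05) and 0.93 (SE 0.05) in the authors' deposited tables. SPRY3, the least abundant of them at 0.424 CPM in HepG2, rose by 1.17 (SE 0.25, adjusted p = 4.69e-06) and 1.48 (SE 0.21, adjusted p = 5.69e-12) in the authors' deposited tables, to 0.958 and 1.18 CPM.

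The SPRED genes, whose products bring the RAS-GTPase activating protein neurofibromin to the membrane, split. SPRED2 fell from 98.8 to 39.5 and 38.7 CPM, with -1.32 (SE 0.04) and -1.36 (SE 0.06) in the authors' deposited tables, and SPRED1 from 33 to 23.0 and 24.2 CPM, with -0.51 (SE 0.05) and -0.45 (SE 0.07). SPRED3 rose from 0.391 to 21.1 and 17.7 CPM, with 5.75 (SE 0.12) and 5.50 (SE 0.12) in the authors' deposited tables. Per kb of exon, SPRED2 made up 50.2% of the summed Sprouty and SPRED level in HepG2 and 9.36% and 8.87% in the clones, as implied by the authors' deposited tables. SPRY2 took the largest share there, 50.1% and 48.7% against 10.9% in HepG2.

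Among the receptor phosphatases, the MAM-domain group, whose members PTPRK and PTPRM bind their own kind on neighbouring cells, was lower in both clones. PTPRK, at an implied 197 CPM in HepG2, stood at 0.599 in H33 and 3.46 in H12, with -8.36 (SE 0.08) and -5.84 (SE 1.00, adjusted p = 7.37e-09) in the authors' deposited tables. PTPRM stood at 53.5 CPM in HepG2, 0.0239 in H33 and 0.898 in H12, with -11.11 (SE 0.16) and -5.91 (SE 0.68, adjusted p = 4.92e-18) in the authors' deposited tables. In H12 these genes lay at 1.74% and 1.66% of HepG2, close to the value at which the 160 deeply lowered genes gathered, PTPRM being among those genes. PTPRU, with its full element shown above, fell less, from 66.9 to 15.2 and 12 CPM, with -2.13 (SE 0.05) and -2.49 (SE 0.08) in the authors' deposited tables.

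PTPRG, a receptor with a carbonic anhydrase-like domain, and PTPRN2 (phogrin), a catalytically weak protein of secretory granule membranes, were also nearly lost. PTPRG went from 68.3 to 0.759 and 1.54 CPM, with -6.48 (SE 0.08) and -5.48 (SE 0.63) in the authors' deposited tables. PTPRN2 went from 26.6 to 0.639 and 0.733 CPM, with -5.36 (SE 0.10) and -5.20 (SE 0.38) in the authors' deposited tables. Of 14 other secretory granule genes checked, 8 were listed, with 6 higher and 2 lower in either clone, where 44.2% and 41.8% of all genes were higher. SCG2, VGF and SNAP25 had HepG2 levels (0.141, 0.126 and 0.00507 CPM) under the lowest mean level listed. They could be listed only because they were high in the clones, so this count describes the listed genes and supports nothing further. The 2 that fell were CPE, the most abundant of the list in HepG2 (-5.02 and -4.42, from 1027 CPM), and RAB3B, which fell far less than PTPRN2 (-1.85 and -1.90) in the authors' deposited tables. Among the rises were those of SCG2 at 14.04 (SE 0.11) and 13.97 (SE 0.60), of SYT1 at 7.02 (SE 0.09) and 6.57 (SE 0.09) and of VGF at 6.40 (SE 0.25) and 6.22 (SE 0.25) in the authors' deposited tables. SNAP25, with HepG2 at the fitted floor, reached 51.9 and 24.9 CPM. Over the 7 members under -4 in H33 (DUSP6, DUSP9, PTPN6, PTPRG, PTPRK, PTPRM and PTPRN2), the implied SE ranged from 0.06 to 0.16 in H33 and from 0.33 to 1.00 in H12. Their levels in H12 were 1.66% to 4.49% of HepG2. Whether single H12 libraries carry these remainders was not tested, since no values per library were used.

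The receptors that rose were PTPRF, PTPRJ and PTPRE. PTPRF (LAR), a receptor at cell junctions and the most abundant of the receptors per kb in all 3 lines, rose from 389 to 958 and 901 CPM, by 1.31 (SE 0.05) and 1.21 (SE 0.24, adjusted p = 6.68e-07) in the authors' deposited tables. PTPRJ (DEP-1, CD148), which acts on growth factor receptors, rose from 6.70 to 112 and 111 CPM, by 4.07 (SE 0.05) and 4.06 (SE 0.07) in the authors' deposited tables. PTPRE, a relative of PTPRA, went from 0.0141 to 1.87 and 1.5 CPM, with 7.06 (SE 0.45) and 6.72 (SE 0.43) in the authors' deposited tables that rest on very few HepG2 reads. PTPRA, an activator of SRC, fell from 156 to 90.2 and 95.9 CPM, with -0.79 (SE 0.03) and -0.71 (SE 0.10) in the authors' deposited tables. PTPRH (-0.74 and -0.80) and PTPRS (-0.54 and -0.63), a receptor for heparan sulfate chains whose window above holds the full element, fell as well in the authors' deposited tables. The receptor sum per kb implied by the authors' deposited tables thus changed little, at 145 CPM per kb in HepG2, 140 in H33 and 135 in H12, while its make-up changed. PTPRF made up 25.0% of it in HepG2 and 64.0% and 62.3% in the clones, PTPRJ 0.481%, 8.37% and 8.58%, and PTPRK 15.1%, 0.0476% and 0.284%.

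**Figure D3:**
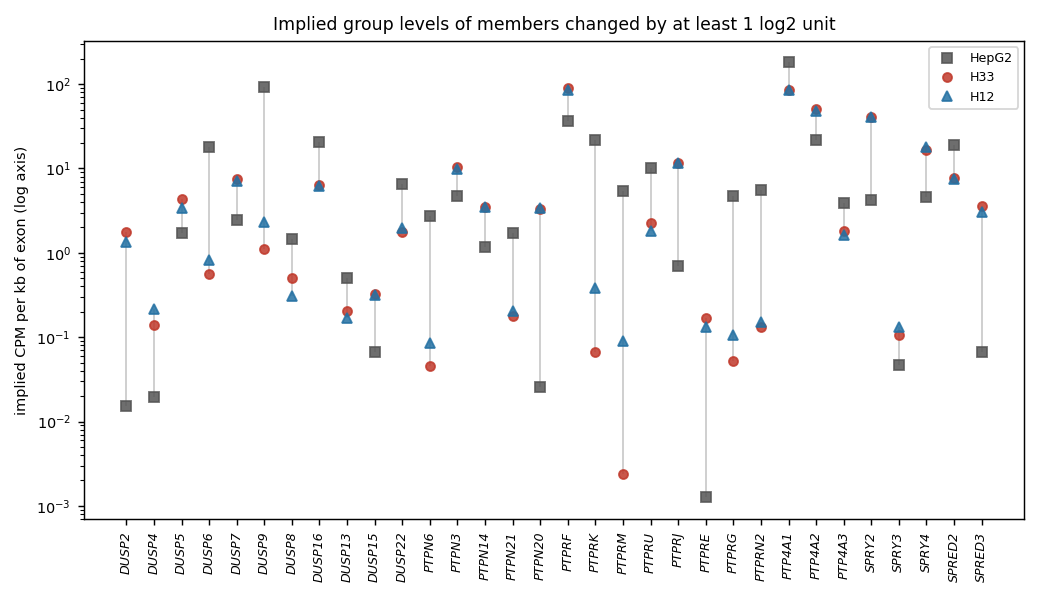
Implied level in HepG2 (squares), H33 (circles) and H12 (triangles), in CPM per kb of merged exon on a log axis, of the members in both tables whose fold change was at least 1 log2 unit in either clone. The clones lie together and apart from HepG2 for most genes, and apart from each other for PTPRM and PTPRK.

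The cytoplasmic tyrosine phosphatases changed less, with exceptions. SHP-1 (PTPN6), an inhibitory enzyme best known from blood cells, fell from 13.8 to 0.230 and 0.425 CPM, with -5.88 (SE 0.14) and -5.04 (SE 0.36) in the authors' deposited tables. Its relative SHP-2 (PTPN11), which promotes RAS signalling, rose from 245 to 322 and 333 CPM, by 0.40 (SE 0.04) and 0.44 (SE 0.16, adjusted p = 0.00905) in the authors' deposited tables. PTP1B (PTPN1), which acts on the insulin receptor and JAK2, rose by 0.71 (SE 0.03) and 0.52 (SE 0.08), and TCPTP (PTPN2), which acts on JAK1 and STAT proteins, by 0.80 (SE 0.05) and 0.71 (SE 0.06) in the authors' deposited tables. The rises of these 3 broadly expressed enzymes were all under 1 log2 unit.

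The PEST-domain enzymes went in opposite directions, PTPN12, an enzyme of focal adhesions, at 0.69 and 0.77 and PTPN18 at -0.90 and -0.92 in the authors' deposited tables. PTPN22 (LYP), known from lymphocytes, had values for H12 only and rose there from 0.0153 to 0.952 CPM. Of the FERM-domain enzymes, PTPN3 rose by 1.16 (SE 0.04) and 1.06 (SE 0.06) and PTPN14, which binds YAP, by 1.56 (SE 0.06) and 1.55 (SE 0.07) in the authors' deposited tables. PTPN21 fell from 12.7 to 1.31 and 1.51 CPM, with -3.25 (SE 0.10) and -3.09 (SE 0.15) in the authors' deposited tables, and PTPN4 moved little (-0.19 and -0.18). PTPN13 had values for H33 only and reached an implied 1.17 CPM there, while its HepG2 level in the authors' deposited table lay at the fitted floor, so no fold is given. PTPN20 rose from 0.117 to 14.9 and 15.3 CPM, by 6.98 (SE 0.16) and 7.04 (SE 0.16) in the authors' deposited tables. It lies on chromosome 10 (46911396 to 47002488, GRCh38) in a duplicated stretch with near-identical copies, so the placing of its reads is uncertain. PTPN9 rose by 0.30 in both, and PTPN23, an endosomal sorting protein, fell (-0.27 and -0.33) in the authors' deposited tables.

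Of the 10 atypical DUSPs, small enzymes that lack the MAP kinase binding domain, H33 had 8 lower (45.3% of all genes) and 1 higher (44.2% of all) and H12 had 7 lower (44.3% of all) and 1 higher (41.8% of all). DUSP22, a regulator of JNK signalling, fell from 37.7 to 9.93 and 11.1 CPM, with -1.91 (SE 0.06) and -1.77 (SE 0.07) in the authors' deposited tables. DUSP13 fell (-1.28 and -1.54) from 1.17 CPM, and DUSP15 rose (2.29 and 2.23) from 0.256 to 1.24 and 1.21 CPM in the authors' deposited tables. DUSP11, DUSP12, DUSP14, DUSP18 and DUSP19 lay between -0.91 and -0.29 in the authors' deposited tables, all past the threshold. DUSP18 shares 34.4% of its exon bases with SLC35E4 on the opposite strand, which makes its value uncertain. DUSP28 fell for H33 (-0.42) in the authors' deposited tables but missed the threshold for H12 (-0.25, adjusted p = 0.0872). DUSP3 (VHR), at an implied 114 CPM in HepG2, was the only member that missed the threshold in both of the authors' deposited tables, at 0.03 (SE 0.03, adjusted p = 0.356) and -0.01 (SE 0.08, adjusted p = 0.938).

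The PRL phosphatases, small membrane-anchored enzymes that bind magnesium transport regulators, exchanged weight between the most abundant pair. PTP4A1 (PRL-1) fell from 954 to 456 CPM in each clone, with -1.06 (SE 0.06) and -1.07 (SE 0.25, adjusted p = 2.09e-05) in the authors' deposited tables. PTP4A2 (PRL-2) rose from 146 to 339 and 319 CPM, by 1.22 (SE 0.04) and 1.13 (SE 0.15) in the authors' deposited tables. PTP4A3 (PRL-3) fell from 11.3 to 5.29 and 4.65 CPM, with -1.09 (SE 0.09) and -1.29 (SE 0.09) in the authors' deposited tables. Per kb, PTP4A1 held 87.6% of the PRL sum in HepG2 and 62.2% and 63.7% in the clones, as implied by the authors' deposited tables. Another annotated gene on the same strand shares 79.0% of the exon bases of PTP4A1, so its level is uncertain.

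The fold changes of the clones were then compared with each other. Of 54 members 5 differed at an adjusted p of 0.05, against 5.4% of all 14765 shared genes. PTPRM differed most, with H33 lower than H12 by a difference of -5.20 log2 units (95% interval -6.56 to -3.84, adjusted p = 1.81e-11), the only member past the threshold with a difference of at least 1 log2 unit (3.75% of all genes). With 0.5 CPM added to each group, the PTPRM fold changes from the authors' deposited tables were -6.67 and -5.29, so the size of this difference depends on the 0.0239 CPM implied for H33. DUSP8 (0.71, SE 0.15, adjusted p = 0.000189), DUSP1 (0.39, SE 0.09, adjusted p = 0.00175) and PTPRU (0.35, SE 0.09, adjusted p = 0.00482) were higher in H33 than in H12. SPRY1 was lower in H33 (-0.23, SE 0.07, adjusted p = 0.0155). The next largest differences were not past the threshold, that of PTPRK (-2.51, 95% interval -4.47 to -0.55, adjusted p = 0.158) and that of DUSP9 (-1.03, 95% interval -2.03 to -0.03, adjusted p = 0.379) among them. For SPRY2 the interval of the difference ran from -0.15 to 0.13 log2 units, for PTPRJ from -0.16 to 0.18 and for DUSP7 from -0.09 to 0.24. A difference of this small size in either direction was thus not excluded for these genes.

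**Figure D4:**
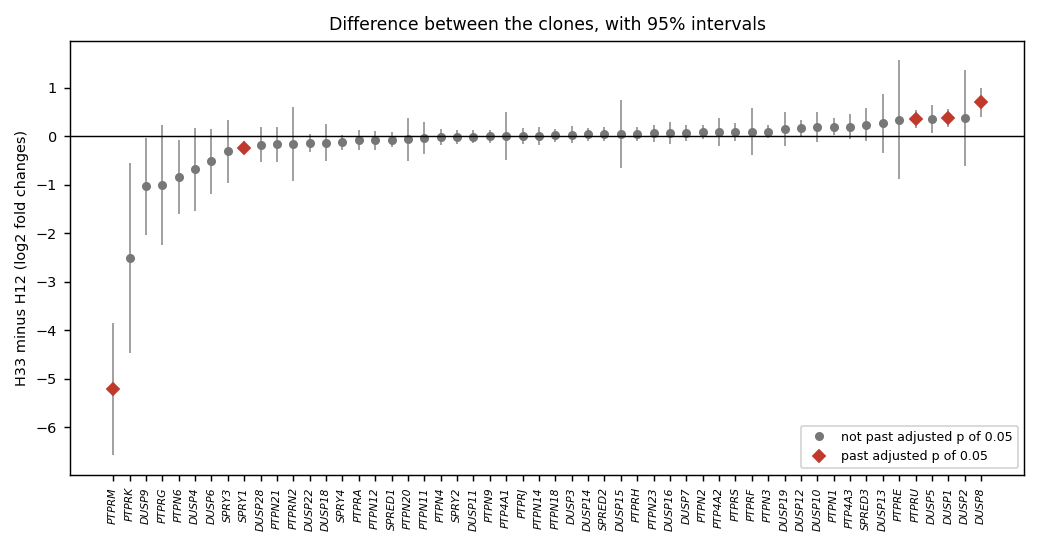
Difference of the log2 fold changes, H33 minus H12, for the 54 members in both tables, in rising order, with 95% intervals from the summed squared SEs. Red diamonds mark the 5 members past an adjusted p of 0.05. PTPRM lies at -5.20 and the other 4 lie between -0.23 and 0.71.

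The kinases that these enzymes oppose, and their upstream activators, changed in both directions. Of 32 listed genes of the RAS and ERK cascade, H33 had 16 higher (44.2% of all genes) and 13 lower (45.3% of all). H12 had 17 higher (41.8% of all genes) and 13 lower (44.3% of all). The medians were 0.19 and 0.21 in the authors' deposited tables. The 4 largest mean changes were rises of the GTPase gene RRAS (2.85 and 2.61), the exchange factor genes RASGRP3 (4.73 and 4.4) and RASGRF1 (4.37 and 3.78) and the GTPase activating protein gene RASA3 (5.87 and 5.81) in the authors' deposited tables. RASGRP3 rose from 0.0719 to 1.88 and 1.54 CPM, so its fold changes (SE 0.30 and 0.33) rest on very few HepG2 reads. RPS6KA3, a kinase gene downstream of ERK named after its values were seen and the most abundant of the list in HepG2 (905 CPM), fell nearly as far as RRAS rose (-2.74 and -2.48) in the authors' deposited tables. Of 35 listed genes of the JNK and p38 cascade, H33 had 13 higher and 21 lower and H12 had 13 higher and 17 lower, beside the same shares of all genes. The medians were -0.18 and -0.11 in the authors' deposited tables. The 4 largest mean changes were falls of the p38 gene MAPK13 (-5.45 and -5.03) and the p38 activator gene MAP2K6 (-5.97 and -5.29) and rises of the stress kinase genes MAP3K5 (9.21 and 9.31) and MAP3K12 (5.97 and 5.78) in the authors' deposited tables. MAP3K5 rose from 0.0783 to 46.7 and 49.5 CPM, so the size of its fold change rests on few HepG2 reads. Another p38 gene, MAPK11, named after its values were seen, rose (4.76 and 4.63) in the authors' deposited tables.

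Among 12 ERK target genes outside these families, H33 had 9 higher (44.2% of all genes) and 3 lower (45.3% of all). H12 had 7 higher (41.8% of all genes) and 3 lower (44.3% of all). Their medians were 0.89 and 0.75 in the authors' deposited tables, beside -0.02 and -0.03 over all genes. FOSL1 (2.73 and 2.89), ETV1 (2.86 and 2.75) and EPHA4 (6.53 and 6.44) rose and ETV4 (-3.21 and -2.90) fell in the authors' deposited tables. The transcripts commonly read together as ERK output thus did not move together: DUSP6 and ETV4 fell, while SPRY2, SPRY4 and FOSL1 rose. Of the tyrosine kinases and adaptors that the phosphatases act on, H33 had 13 higher and 14 lower of 29. H12 had 12 higher and 14 lower of 28, and both stand beside the same shares of all genes. The largest changes were falls of the Src family genes LCK (-4.72 and -4.33) and FRK (-6.38 and -5.94), the adaptor gene PAG1 (-5.14 and -4.25) and the ubiquitin ligase gene CBLB (-4.17 and -3.95) in the authors' deposited tables.

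Of 27 related phosphatases outside these symbols, H33 had 13 higher (44.2% of all genes) and 12 lower (45.3% of all). H12 had 13 higher (41.8% of all genes) and 11 lower (44.3% of all) of 26. EYA2, listed for H33 only, had a HepG2 level of 0.0427 CPM, so it could be listed only because it was high in that clone. PALD1 (6.66 and 6.59), the cell cycle phosphatase gene CDC25B (2.55 and 2.40) and the cofilin phosphatase gene SSH1 (1.73 and 1.73) rose, and CDC14B (-2.34 and -2.13) fell in the authors' deposited tables. Of 20 ligands and partners of receptor phosphatases only 5 were listed, 3 higher and 2 lower in each clone, beside the same shares of all genes. These included falls of midkine (MDK, -6.37 and -5.39) and IL1RAP (-3.84 and -3.29) and rises of SLITRK3 (5.90 and 6.10) and LRFN4 (2.53 and 2.12) in the authors' deposited tables. SLITRK3 went from 0.0152 CPM in HepG2 to 0.919 and 1.03 CPM, so its fold changes (SE 0.52 and 0.51) rest on very few HepG2 reads.

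**Figure D5:**
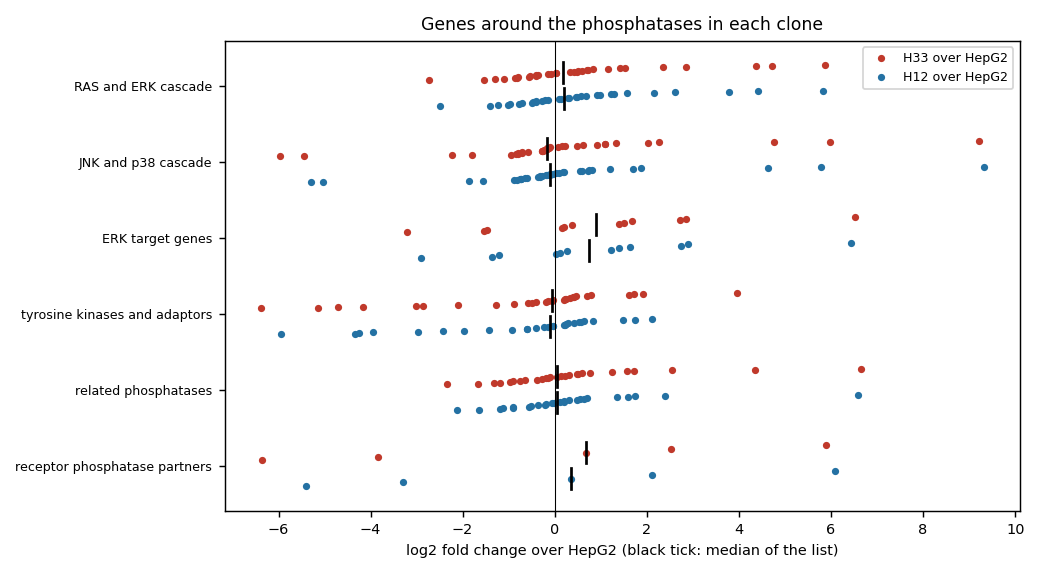
Log2 fold changes over HepG2 of the listed genes of 6 lists around the phosphatases, H33 in red and H12 in blue, 1 point per gene, with a black tick at the median. Each list spans rises and falls, and the ERK target genes have medians of 0.89 and 0.75.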

How the data were processed

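Poly-A RNA of 18 libraries was sequenced, and the groups HepG2, H33 and H12 (6 libraries each) were taken from the sample titles. Tools listed without roles in the submitters' processing notes are edgeR 3.28.0, RSEM, STAR 2.5.3a and bcl2fastq 2.20.0.422, with build GRCh38.p10. Not given in the sources used here are the low-count filter, library scaling, annotation release and use of strand. Per the file headers, the 2 deposited tables hold per gene the log2 fold change (clone over HepG2) and the mean expression as log2 CPM. Per the file headers, they also hold a likelihood ratio, used here as a score, and the authors' p-value with its adjusted p-value. Each deposited p equals the chi-square tail of its likelihood ratio (degrees of freedom: 1). Deposited adjusted values lie within 0.000152 (H33) and 0.000105 (H12) of a Benjamini-Hochberg adjustment over all listed genes. No values per library were used, so depth is unknown, and in place of the planned tests on counts stand the authors' tests at an adjusted p of 0.05.

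The standard error (SE) of a fold change was derived as its size over the root of the likelihood ratio. It can be too small where 1 group has almost no reads. The level of each group follows from mean CPM and fold change if both groups weigh the same. Between tables, HepG2 levels so obtained had an SD of 0.00981 on the log2 scale (12737 genes above 1 CPM). Levels under 0.00781 CPM were taken as the fitted floor. Levels per kb used merged exons of GENCODE 29, in which all 15019 identifiers were found. The H33 and H12 fold changes were compared with a z test, taking their SEs as independent (two-sided, Benjamini-Hochberg over 14765 shared genes). The rule for members uses symbols only, but the choice of these families and of the lists was made with earlier results of these data known. All members may be named, in order of role. Singly valued members are those called with a change of at least 1 log2 unit in either table or called in neither, with some others given in full, and from other lists up to 4 genes called in both tables with the largest mean change. Python 3.11.15, numpy 2.4.6, pandas 2.3.3, scipy 1.17.1 and matplotlib 3.10.9 were used.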

Additional observations from a re-analysis of the deposited data

Results flagged for a closer look

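PTPRM stood out because its fall differed between the clones by the test of the difference itself. H33 minus H12 was -5.20 log2 units (SE 0.70, adjusted p = 1.81e-11), from log2 fold changes of -11.11 in the authors' deposited table for H33 and -5.91 in that for H12. With 0.5 CPM added to each group, these fold changes were -6.67 and -5.29, which brings the clones much closer. The implied levels were 0.0239 CPM in H33 and 0.898 CPM in H12, beside 53.5 CPM in HepG2. In H12, 160 genes that fell deeply in H33, PTPRM among them, centred on -5.93 (median log2 fold change, from the authors' deposited table). The part of this shared H12 value in the difference was not tested.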

How the results depend on the processing

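No paired analysis was possible because the deposited tables hold no values per library, so tests with a replicate number as a block, with DESeq2 or with libraries left out were not run. Requiring a change of at least 1 log2 unit lowered the members past the threshold from 53 to 33 in H33 and from 52 to 32 in H12, and those that differ between clones from 5 to 1, since it adds a condition. Under a threshold of 0.01, Bonferroni adjustment, at least 1 log2 CPM or recentring on the median, the counts stayed between 45 and 53 in H33 and between 44 and 52 in H12. Taking a correlation of 0.5 between the clones from the shared HepG2 libraries gave 6 differing members, the same 5 and DUSP5. DUSP3 in H12, past the threshold in no setting, turned from -0.01 to 0.021 when recentred. Of 110 single values, 7 lost their call under Bonferroni adjustment, among them PTP4A1 and PTPN11 in H12 and SPRY3 in H33. With 0.5 CPM added to each group, 38 moved by more than their SE and none changed sign; PTPRM in H33 went from -11.11 to -6.67. Depth is unknown, so no detection limit can be given for genes with a group under 0.1 CPM.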

Other observations

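The nearest genes on either side were looked up for each member in both tables, up to 5 on each side. Around DUSP9 the 10 neighbours had a median log2 fold change of 0.49 in H33 and 0.47 in H12 in the authors' deposited tables, and around PTPN6 0.71 and 0.59. Around SPRY2 it was 0.31 and 0.27, and around PTPRJ -0.19 and -0.16. The medians around these 4 members therefore lay within 1 log2 unit of 0, and no neighbour of PTPN6 was lower in H33. For several members, SPRY2 among them, a nearest neighbour changed strongly in the same direction. LINC01080 beside SPRY2 stood at 7.29 and 7.09, FAHD2CP beside DUSP2 at 7.76 and 7.60 and LINC00668 beside PTPRM at -9.41 and -5.79. For others it went the other way, as did LAMA2 (6.12 and 6.03) beside PTPRK. Beside DUSP6, the growth factor gene KITLG stood at -6.20 and -5.69, and beside PTPN20, ZNF488 stood at 6.94 and 7.27 in the authors' deposited tables. These members and neighbours were named after their values were seen, and no test was made.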
